A study of Mus musculus with 28 samples.

Results

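The acute phase genes described here are 10 mouse genes for secreted plasma proteins: Saa1, Saa2, Saa3, Saa4, Orm1, Orm2, Hp, Hpx, Lcn2 and Crp. They were taken by symbol, and their deposited counts were summed per gene in every library, which made them 10 of the 23712 genes measured. Each had 1 transcript in the files and at least 1 read in both hepatocyte libraries.

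The study turned mouse embryonic fibroblasts into hepatocyte-like cells with retroviruses carrying Hnf4alpha and a Foxa transcription factor, and sequenced mRNA from 28 libraries in 9 groups. All animals and cells were of the C57BL/6 strain. Induced hepatocyte-like (iHep) cells came in 3 groups that each carried Hnf4alpha together with Foxa1 (iHep_Foxa1, 6 libraries), Foxa2 (iHep_Foxa2, 4 libraries) or Foxa3 (iHep_Foxa3, 6 libraries). The same factor combinations were sampled at 48 h (48h_Foxa1, 48h_Foxa2 and 48h_Foxa3, 2 libraries each). A Foxa3 mutant named del2, given with Hnf4alpha, made up 2 further libraries (48h_Foxa3del2), whose titles say 48 h, whose stage label says iHep, and which the series text calls iMEFs. The untransduced groups were adult hepatocytes (Hep, 2 libraries), freed by collagenase digestion from livers of mice aged 10 weeks, and the starting fibroblasts (MEF, 2 libraries), from embryos at 13.5 days post coitum. The factors were delivered in the pGCDNsam retroviral backbone, and no group given an empty virus is among the 28 libraries. The labels do not say whether libraries of a group came from separate cultures or animals, so the p-values measure the spread between these libraries, which may be technical.

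The acute phase response is the change in plasma proteins that follows infection or injury. Cytokines such as interleukin-6 and interleukin-1 act on the liver through STAT3, NF-kB and C/EBP transcription factors, and hepatocytes then raise the transcription and secretion of these proteins. Saa1 and Saa2 encode the serum amyloid A proteins that the inflamed mouse liver releases on high-density lipoprotein, Saa4 a form made without inflammation, and Saa3 a form also made by macrophages, adipocytes and epithelia. Lcn2 encodes a lipocalin that captures bacterial siderophores, Hp and Hpx encode haptoglobin and hemopexin, which bind free hemoglobin and heme, Orm1 and Orm2 encode alpha-1-acid glycoproteins, and Crp encodes C-reactive protein, a pentraxin that responds strongly in humans and weakly in mice.

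Library depth was 14592820 to 51743266 assigned reads. Levels are given as CPM, counts scaled to library size with edgeR's TMM factors, and as FPKM, which also divides by transcript length, wherever genes are compared with each other. Each given factor was found in its own groups: Foxa1 was at 468–3419 CPM in iHep_Foxa1, Foxa2 at 988–3281 CPM in iHep_Foxa2 and Foxa3 at 653–2074 CPM in iHep_Foxa3. The summed level of 12 hepatocyte markers was 5947–31851 CPM in iHep_Foxa1, 2390–7671 CPM in iHep_Foxa2 and 9888–24211 CPM in iHep_Foxa3, against 224126–246100 CPM in Hep and 14.3–19.1 CPM in MEF. Libraries also fell into a high and a low set by the small nuclear RNA Rn7sk: 6 libraries at 48 h, iHep_Foxa1 replicates 4 to 6 and iHep_Foxa3 replicates 2 to 6 had 10 CPM or more, and the other 14 had at most 5.98 CPM. These are bulk RNA samples, in which fewer cells that make an RNA and less RNA per cell cannot be told apart.

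The 10 genes split into 3 patterns. Saa3 and Lcn2 were near 0 in MEF, low in Hep and highest in iHep cells. Hp and Hpx were above MEF in iHep cells and far below Hep. Saa1, Saa2, Saa4, Orm1, Orm2 and Crp were abundant in Hep and at or near 0 in every other group.

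**Figure D1:**
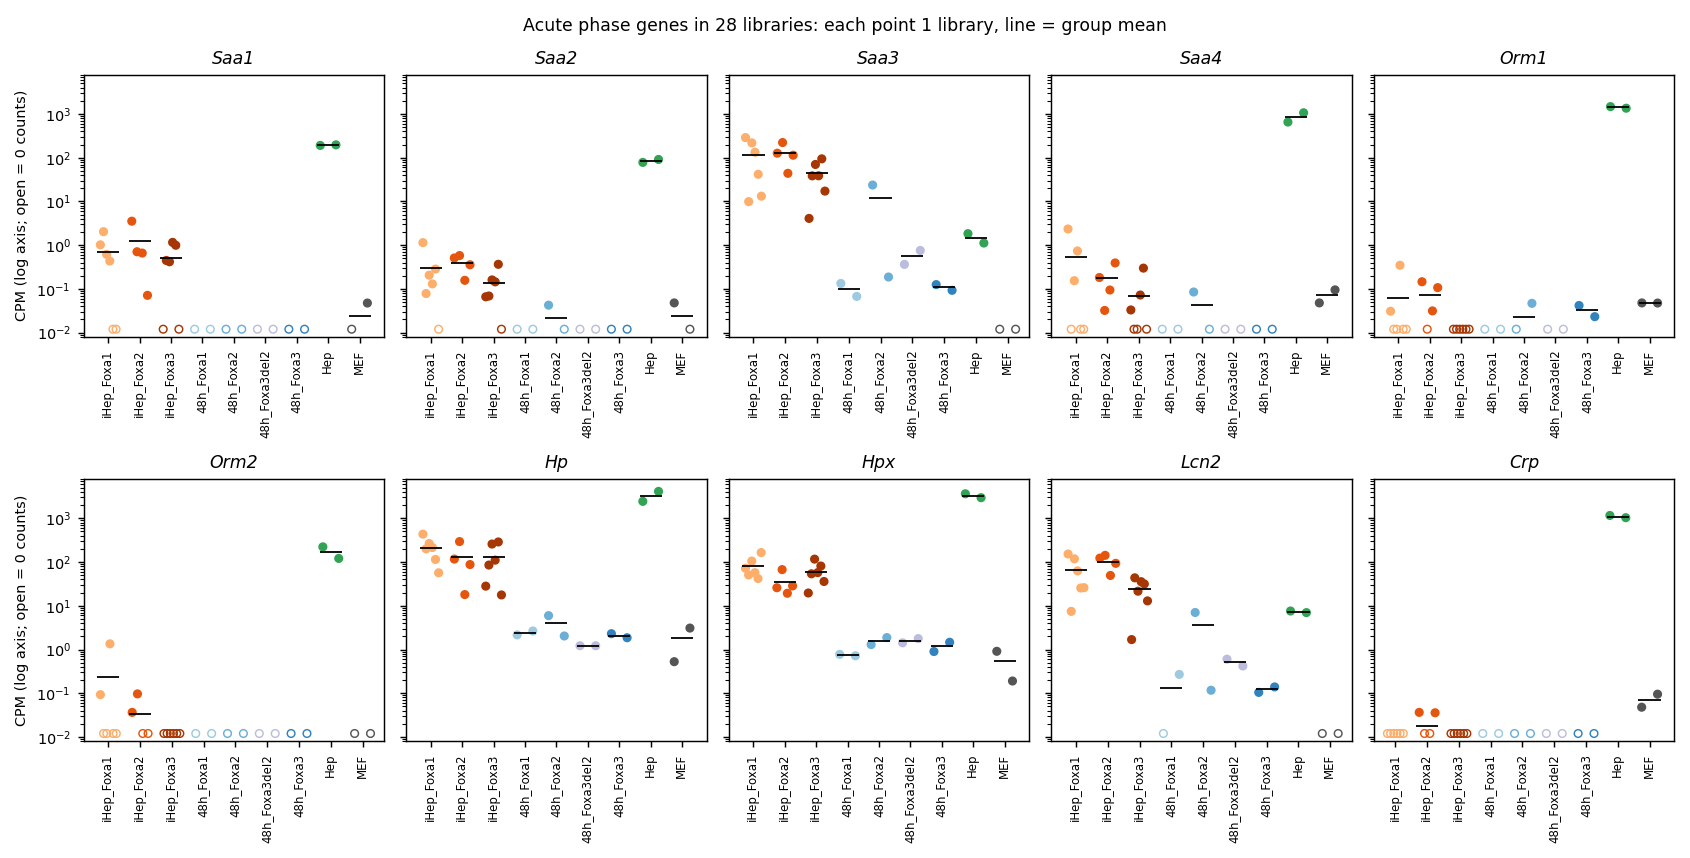
Level of each acute phase gene in every library, in CPM on a log axis, with 1 point per library, open points for 0 counts and a line at the group mean, over the 9 groups. Saa3 reached 289 CPM in iHep_Foxa1 against at most 1.84 CPM in Hep, whereas Crp stood at 1034 and 1163 CPM in Hep and at 0 counts in all libraries of iHep_Foxa1 and iHep_Foxa3.

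Each comparison was tested with edgeR's quasi-likelihood F test over 16499 genes, with p-values adjusted by the Benjamini-Hochberg method within the comparison, and calls were made below 0.05. In Hep against MEF, all but Saa3 were called higher, 9 of the 10, and none lower, where 24.3% of all tested genes were called higher and 32.6% lower. Orm1, Orm2 and Crp passed the filter on low counts only through Hep and therefore had to differ from it, so counts that involve Hep only describe the genes. Saa3 was at least 20.7-fold higher in Hep than in MEF and did not pass the test (adjusted p = 0.0884), and Lcn2 was at least 102-fold higher (adjusted p = 0.0041; 0.0764 with limma). In iHep cells against MEF, Saa3, Lcn2, Hp and Hpx were called higher with each of the 3 Foxa factors. The 4 of 10 stand beside 20% of all tested genes called higher in iHep_Foxa1, 15.3% in iHep_Foxa2 and 22.9% in iHep_Foxa3. Crp was called lower in iHep_Foxa1 and iHep_Foxa3, where 19.9% and 23.7% of tested genes were called lower, and no member was called lower in iHep_Foxa2, where 15.5% were.

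In iHep cells against Hep, 8 of the 10 were called lower with each factor, beside 24.8% of tested genes called lower in iHep_Foxa1, 25.4% in iHep_Foxa2 and 26.7% in iHep_Foxa3. Saa3 and Lcn2 were called higher in iHep_Foxa1 and in iHep_Foxa2, and Saa3 alone in iHep_Foxa3, beside 35.3%, 35.2% and 35.3% of tested genes called higher. The median log2 fold change of the 10 was −8.06 in iHep_Foxa1, −7.50 in iHep_Foxa2 and −8.91 in iHep_Foxa3 against Hep, where the medians of all tested genes were 0.42, 0.42 and 0.39. With genes at 0 counts in 1 group placed at their bound, these member medians were unchanged to 2 decimals. Against MEF the same medians were 5.29, 4.67 and 3.25, against 0.08, 0.06 and 0.05 for all tested genes. At their bounds, the medians against MEF became 4.67 over 9 genes, 5.73 over 8 and 6.18 over 7. These leave out members at or under 3 counts in both groups, or whose bound allowed no fold. Left out were Crp with Foxa1, Orm2 and Crp with Foxa2, and Orm1, Orm2 and Crp with Foxa3. The 3 medians therefore cover different genes. The 3 comparisons with MEF share the MEF libraries, and the 3 with Hep share the Hep libraries.

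The promoters of the 10 genes were read for sites of the factor families that act in the acute phase response. RefSeq (GRCm38.p6) gave a promoter window, 250 bases before to 50 bases after the start, for 8 of them. Only 1 start per gene was used. Saa3 and Saa1 are annotated up to chr7:46719615 and chr7:46743181 on the minus strand. The starts used for them thus lie inside the annotated genes, and other starts were not searched. Below are the 250 bases before the start of 5 genes, chosen to show the patterns above: Saa3 and Lcn2, highest in iHep cells, Hpx, expressed in both iHep cells and Hep, and Saa1 and Crp, hepatocyte genes far lower in iHep cells than in Hep. Each reads 5′ to 3′ on the gene's strand, and capitals mark C/EBP letters. Saa3 is at chr7:46715677-46715926 on the minus strand, Lcn2 at chr2:32387740-32387989 on the minus strand, Hpx at chr7:105600117-105600366 on the minus strand, Saa1 at chr7:46742981-46743230 on the minus strand and Crp at chr1:172697806-172698055 on the plus strand.
Saa3: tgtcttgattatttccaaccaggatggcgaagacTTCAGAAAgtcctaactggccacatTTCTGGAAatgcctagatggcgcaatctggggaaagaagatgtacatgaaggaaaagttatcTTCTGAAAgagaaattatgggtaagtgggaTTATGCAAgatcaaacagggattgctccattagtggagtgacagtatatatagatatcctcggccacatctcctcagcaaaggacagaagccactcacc
Lcn2: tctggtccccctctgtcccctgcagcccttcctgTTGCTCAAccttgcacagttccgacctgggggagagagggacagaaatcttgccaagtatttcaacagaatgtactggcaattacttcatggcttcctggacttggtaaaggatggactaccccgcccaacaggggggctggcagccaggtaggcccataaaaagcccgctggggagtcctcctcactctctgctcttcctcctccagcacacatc
Hpx: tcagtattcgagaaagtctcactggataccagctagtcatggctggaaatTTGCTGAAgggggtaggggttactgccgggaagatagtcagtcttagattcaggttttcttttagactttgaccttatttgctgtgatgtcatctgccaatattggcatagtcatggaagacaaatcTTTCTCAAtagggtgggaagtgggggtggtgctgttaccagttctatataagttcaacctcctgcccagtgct
Saa1: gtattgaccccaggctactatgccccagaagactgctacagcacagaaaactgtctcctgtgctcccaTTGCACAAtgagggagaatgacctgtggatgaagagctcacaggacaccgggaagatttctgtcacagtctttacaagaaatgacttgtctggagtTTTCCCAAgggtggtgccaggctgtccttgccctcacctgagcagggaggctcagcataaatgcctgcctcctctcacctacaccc
Crp: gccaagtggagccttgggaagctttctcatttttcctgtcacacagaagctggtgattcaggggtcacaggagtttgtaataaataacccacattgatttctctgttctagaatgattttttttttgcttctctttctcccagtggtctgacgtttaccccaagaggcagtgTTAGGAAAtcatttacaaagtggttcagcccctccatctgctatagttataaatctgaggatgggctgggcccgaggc

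The C/EBP letters TTNNGNAA, searched on both strands, were found in all 8 windows and in 40.7% of the 32851 promoter windows of the same length. Saa3 held 4 matches, the most of the 8. They read TTCAGAAA from base −216, TTCTGGAA from −191, TTCTGAAA from −129 and TTATGCAA from −99, counted from the transcription start. Lcn2 held TTGCTCAA from −216, Hpx held TTGCTGAA from −200 and TTTCTCAA from −73, Saa1 held TTGCACAA from −182 and TTTCCCAA from −86, and Crp held TTAGGAAA from −78. The NF-kB letters, GGGA and CC with 4 bases between them, were in none of the 8 windows and in 20.7% of all windows, and the STAT letters TTCNNNGAA in none of the 8 and in 8.3% of all. The forkhead letters TGTTTAC or TGTTTGC (8.48% of all windows), the HNF4 letters CAAAGTCCA (0.475%) and the HNF1 letters, GTTAAT and TTAAC with 2 bases between them (0.0396%), were likewise in none of the 8. C/EBP matches were thus present in genes of all 3 expression patterns, and a match or its absence describes these windows only.

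Saa3 was the serum amyloid gene that iHep cells expressed. The 6 iHep_Foxa1 libraries had a lowest level of 9.92, a median of 87.8 and a highest of 289 CPM. The 4 iHep_Foxa2 libraries had 127, 223, 44.1 and 114 CPM. The 6 iHep_Foxa3 libraries ran from 4.10 CPM through a median of 38.6 to 94.5 CPM, against 1.84 and 1.12 CPM in the 2 Hep libraries and 0 counts in both MEF libraries. Of all tested genes, 33.4%, 43.0% and 36.8% lay wholly above Hep in iHep_Foxa1, iHep_Foxa2 and iHep_Foxa3. Wholly above MEF lay 19.6%, 27.1% and 24.9%. For Saa3, every iHep library lay above both Hep and both MEF libraries. Mean levels were 117.8 ± 117 CPM in iHep_Foxa1, 127 ± 73.5 CPM in iHep_Foxa2 and 43.9 ± 33.5 CPM in iHep_Foxa3 (SD, n = 6, 4 and 6), against 1.48 ± 0.506 CPM in Hep (SD, n = 2). Per transcript length these were 233, 250.2 and 86.8 FPKM against 1.48 FPKM.

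Saa3 differed from Hep by a log2 fold change of 6.31 ± 1.82 (SE) in iHep_Foxa1 (adjusted p = 0.00509), 6.42 ± 1.85 in iHep_Foxa2 (adjusted p = 0.00499) and 4.89 ± 1.71 in iHep_Foxa3 (adjusted p = 0.0173, edgeR's quasi-likelihood test). Against MEF, Saa3 was at least 1645-fold higher in iHep_Foxa1 (adjusted p = 0.000861), at least 1774-fold in iHep_Foxa2 (adjusted p = 0.00119) and at least 613-fold in iHep_Foxa3 (adjusted p = 0.00166). These bounds set the 0 counts of MEF to 3 counts over the group and cover counting error only. The call against Hep rests on 2 libraries with 24 reads in all. Without Hep replicate 2 the adjusted p was 0.0592, 0.0564 and 0.119 with Foxa1, Foxa2 and Foxa3, and without Hep replicate 1 it was 0.0909 with Foxa3. Within the low Rn7sk set the log2 fold change against Hep was 6.78 for the 3 libraries of iHep_Foxa1 (adjusted p = 0.0035). It was 1.37 for the 1 library of iHep_Foxa3 there, a value with no replicate of its own.

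Lcn2 followed the same pattern at lower ratios to Hep. The 6 iHep_Foxa1 libraries had a lowest level of 7.45, a median of 44.4 and a highest of 153 CPM. The 4 iHep_Foxa2 libraries had 123, 142, 49.4 and 93.5 CPM. The 6 iHep_Foxa3 libraries ran from 1.69 CPM through a median of 26.5 to 43.6 CPM, against 7.59 and 6.97 CPM in Hep and 0 counts in MEF. All iHep_Foxa2 libraries lay above Hep, which held for 43.0% of all tested genes. Replicate 2 of iHep_Foxa1 fell between the Hep libraries, and replicate 1 of iHep_Foxa3 lay below both. The mean was 65.5 ± 58.2 CPM in iHep_Foxa1, 102 ± 40.4 CPM in iHep_Foxa2 and 24.5 ± 15.5 CPM in iHep_Foxa3 (SD, n = 6, 4 and 6), against 7.28 ± 0.436 CPM in Hep (SD, n = 2).

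Lcn2 was at least 915-fold higher in iHep_Foxa1 than in MEF (adjusted p = 0.000411), at least 1426-fold in iHep_Foxa2 (adjusted p = 0.000411) and at least 342-fold in iHep_Foxa3 (adjusted p = 0.000901, edgeR's quasi-likelihood test). Against Hep the log2 fold change was 3.17 ± 1.29 (SE) in iHep_Foxa1 (adjusted p = 0.0391) and 3.81 ± 1.36 in iHep_Foxa2 (adjusted p = 0.0202). In iHep_Foxa3 it was 1.75 ± 1.19 and did not pass the test (adjusted p = 0.207). The call in iHep_Foxa1 was lost without Hep replicate 1 or 2 (adjusted p = 0.159 and 0.173), without iHep_Foxa1 replicate 1 or 3 (0.0648 and 0.0565), with DESeq2 size factors (0.0505), with no filter on low counts (0.0519), with the compared groups alone (0.0537) and with a replicate block (0.0605). The call in iHep_Foxa2 was lost without Hep replicate 1 or 2 (adjusted p = 0.106 and 0.115). Both MEF libraries are in the low Rn7sk set. Within that set, the 1 library of iHep_Foxa3 gave Lcn2 a log2 fold change of 8.53 from MEF, with no replicate of its own.

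Saa3 and Lcn2 had the most similar patterns to each other over all libraries. Over the 28 libraries, the Pearson correlation of log2(CPM + 1) between them was 0.962. Among 13206 genes whose highest group mean was at least 5 CPM, each was the only gene with a correlation of 0.95 or more to the other. The next genes were Ms4a4b at 0.894 and Wnt4 at 0.888 for Saa3, and Wnt4 at 0.909 and Ms4a4b at 0.887 for Lcn2. All libraries share the contrast between iHep cells and the rest, so these values describe the 28 libraries and carry no test. Within groups, the iHep_Foxa1 libraries ranked 1, 3, 4, 5, 6, 2 from high to low for Saa3 and 1, 3, 4, 6, 5, 2 for Lcn2. The 4 iHep_Foxa2 libraries ranked 2, 1, 4, 3 for both genes. The orders differed in iHep_Foxa3, at 5, 3, 4, 2, 6, 1 for Saa3 and 2, 4, 5, 3, 6, 1 for Lcn2. The ratio of Saa3 to Lcn2 in FPKM was 0.819–3.42 in iHep_Foxa1, 1.43–2.51 in iHep_Foxa2 and 1.42–5.24 in iHep_Foxa3, against 0.258–0.388 in Hep.

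**Figure D2:**
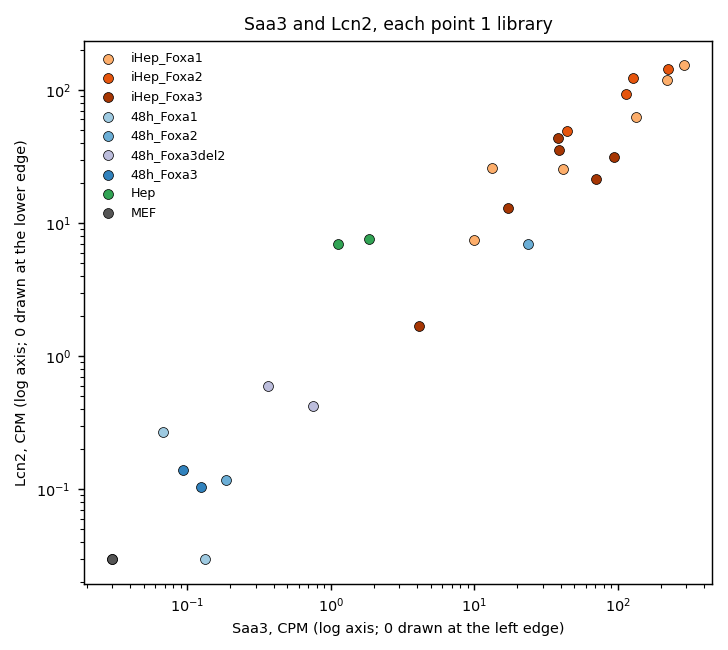
Lcn2 against Saa3 in each of the 28 libraries, both in CPM on log axes, coloured by group, with 0 counts drawn at the edge. The points run from the MEF libraries at 0 for both genes to iHep_Foxa1 replicate 1 at 289 CPM of Saa3 and 153 CPM of Lcn2, with exceptions such as iHep_Foxa3 replicate 1, at 4.10 CPM of Saa3 and 1.69 CPM of Lcn2, against 1.12–1.84 and 6.97–7.59 CPM in Hep.

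Macrophages, neutrophils, adipocytes and epithelia can also make Saa3 or Lcn2, and their markers were read in the same libraries. The summed level of the 11 macrophage markers found in the files was 0.0784–1.15 CPM in iHep_Foxa1, 0.250–2.15 CPM in iHep_Foxa2 and 0.628–4.95 CPM in iHep_Foxa3, against 375–522 CPM in Hep and 28.2–325 CPM in MEF. Clec4f, a marker of liver macrophages, was at 0 counts in all 3 iHep groups. The summed level of the 9 neutrophil markers found was 0.0784–5.91 CPM in iHep_Foxa1, 3.46–7.06 CPM in iHep_Foxa2 and 0.551–3.62 CPM in iHep_Foxa3, against 0 CPM in Hep and at most 0.0476 CPM in MEF. S100a8 was at 0–4.96 CPM and S100a9 at 0–4.56 CPM over the iHep libraries, and Mpo, Camp and Retnlg were at 0 counts in all 3 groups. The 7 adipocyte markers summed to 0.502–7.30 CPM over the iHep libraries, against 8213–9925 CPM in Hep and 9.52–46.9 CPM in MEF. They include Pck1, which is also among the hepatocyte markers and was higher in Hep than in MEF by a log2 fold change of 13.67. The Hep sum therefore cannot be read as an adipocyte level. Lep was at 0 counts in all 3 iHep groups, and Adipoq, Plin1, Lep and Cfd were at 0 counts in Hep. The 7 markers of intestinal epithelium had a higher sum in iHep cells. That sum was 387–5025 CPM in iHep_Foxa1, 89.0–436 CPM in iHep_Foxa2 and 468–1194 CPM in iHep_Foxa3, against 19.7–24.0 CPM in Hep and 4.52–5.70 CPM in MEF. Of the 7, Cdx2, Vil1, Lgals4 and Tff3 were called higher than MEF in each iHep group, Muc2 in iHep_Foxa1 and iHep_Foxa3, and Cdx1 was at 0 counts in iHep_Foxa2. Cdh17 was called in none of them, with log2 fold changes from MEF of 2.86, −0.71 and −1.59 with Foxa1, Foxa2 and Foxa3. The part of these cell types in the Saa3 and Lcn2 levels was not tested.

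Hp and Hpx, whose proteins clear hemoglobin and heme from plasma, were the most abundant hepatocyte transcripts of the 10 that iHep cells also expressed. For Hp, the iHep_Foxa1 libraries had a lowest level of 56.8, a median of 208 and a highest of 435 CPM. The 4 iHep_Foxa2 libraries had 117, 294, 18.04 and 87.7 CPM. The iHep_Foxa3 libraries ran from 17.7 CPM through a median of 98.0 to 288 CPM, against 2443 and 4128 CPM in Hep and 0.527 and 3.09 CPM in MEF. No iHep library overlapped either Hep or MEF. Of all tested genes, 19.6%, 27.1% and 24.9% lay wholly above MEF in iHep_Foxa1, iHep_Foxa2 and iHep_Foxa3. Wholly below Hep lay 24.9%, 30.2% and 27.5%. Hp was 119-fold higher in iHep_Foxa1 than in MEF, with a log2 fold change of 6.89 ± 1.39 (SE, adjusted p = 0.000479). It was 71.4-fold higher in iHep_Foxa2 (6.15 ± 1.36, adjusted p = 0.00147) and 72.6-fold higher in iHep_Foxa3 (6.18 ± 1.34, adjusted p = 0.000744, edgeR's quasi-likelihood test). Against Hep it was 15.3-fold lower in iHep_Foxa1 (adjusted p = 0.000261), 25.4-fold lower in iHep_Foxa2 (adjusted p = 0.000247) and 25.01-fold lower in iHep_Foxa3 (adjusted p = 4.38e-05). Mean Hp was 6.53%, 3.93% and 4.00% of the Hep mean with Foxa1, Foxa2 and Foxa3.

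For Hpx, the iHep_Foxa1 libraries had a lowest level of 42.0, a median of 64.6 and a highest of 165 CPM. The 4 iHep_Foxa2 libraries had 25.8, 67.2, 19.3 and 28.5 CPM. The iHep_Foxa3 libraries ran from 19.6 CPM through a median of 55.6 to 117 CPM, against 3642 and 2964 CPM in Hep and 0.910 and 0.190 CPM in MEF. The groups again did not overlap, beside the same shares of all tested genes as for Hp. Hpx was 149-fold higher in iHep_Foxa1 than in MEF (log2 fold change 7.21 ± 0.912, SE, adjusted p = 2.4e-06), 64.0-fold higher in iHep_Foxa2 (5.99 ± 0.875, adjusted p = 2.39e-05) and 110.4-fold higher in iHep_Foxa3 (6.78 ± 0.896, adjusted p = 3.06e-06). Against Hep it was 40.3-fold lower in iHep_Foxa1 (adjusted p = 1.37e-08), 93.8-fold lower in iHep_Foxa2 (adjusted p = 1.57e-08) and 54.4-fold lower in iHep_Foxa3 (adjusted p = 4.64e-09). Mean Hpx was 2.48%, 1.07% and 1.84% of the Hep mean.

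With Foxa1 and Foxa2, Hp and Hpx kept their calls against MEF within the low Rn7sk set. The log2 fold change of Hp there was 7.34 in iHep_Foxa1 (3 libraries) and 6.12 in iHep_Foxa2 (4 libraries), and that of Hpx was 7.07 and 5.97. The 1 library of iHep_Foxa3 in this set gave 3.91 for Hp and 5.11 for Hpx, as values with no replicate of their own. The genes whose levels over the 28 libraries were most like Hp were H2-T23 at a Pearson correlation of 0.951, Hpx at 0.948 and Faah at 0.944. Those most like Hpx were Faah at 0.957, Rgl3 at 0.956 and Acsm1 at 0.956. Hp and Hpx parted within groups: iHep_Foxa1 replicate 6 had the highest Hpx and the lowest Hp of its group.

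Saa1, Saa2 and Saa4 were hepatocyte genes that iHep cells barely expressed. In Hep, Saa1 was at 191 and 197 CPM, Saa2 at 78.2 and 91.4 CPM and Saa4 at 655 and 1068 CPM. Saa1 was at 0–2.04 CPM in iHep_Foxa1, 0.0714–3.54 CPM in iHep_Foxa2 and 0–1.16 CPM in iHep_Foxa3, and at 0 and 1 counts in the MEF libraries. Saa2 stayed at or below 1.15, 0.580 and 0.366 CPM in the same iHep groups, and Saa4 at or below 2.35, 0.393 and 0.299 CPM. All iHep libraries lay below both Hep libraries for all 3 genes. That held for 24.9%, 30.2% and 27.5% of all tested genes with Foxa1, Foxa2 and Foxa3. Saa1 was 283-fold lower in iHep_Foxa1 than in Hep, 156-fold lower in iHep_Foxa2 and 385-fold lower in iHep_Foxa3, with log2 fold changes of −8.10 ± 1.18 (SE, adjusted p = 9.93e-06), −7.29 ± 1.35 (adjusted p = 0.000145) and −8.58 ± 1.2 (adjusted p = 5.7e-06, edgeR's quasi-likelihood test). Saa2 was 276-fold, 211-fold and 631-fold lower, and Saa4 1593-fold, 4909-fold and 12768-fold lower, with adjusted p-values of at most 2.62e-06.

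None of Saa1, Saa2 and Saa4 passed the test against MEF. Their adjusted p-values were 0.139, 0.0972 and 0.18 for Saa1 in iHep_Foxa1, iHep_Foxa2 and iHep_Foxa3, 0.0981, 0.0918 and 0.295 for Saa2, and 0.208, 0.722 and 0.99 for Saa4. With a replicate block, Saa2 was called in iHep_Foxa1 (adjusted p = 0.0465) and iHep_Foxa2 (0.0316). Saa1 and Saa2 transcripts are 94.4% identical over their aligned bases, so the split of reads between them is uncertain, and RefSeq lists each symbol as a synonym of the other. Summed to 1 row, they were lower in iHep cells than in Hep by log2 fold changes of −8.09, −7.41 and −8.76, and their adjusted p against MEF was 0.0751, 0.0508 and 0.128. Saa1 and Saa3 transcripts are 76.0% identical.

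Orm1, Orm2 and Crp had at most 31 reads in any iHep library. In Hep, Orm1 was at 1477 and 1358 CPM, Orm2 at 223 and 121 CPM and Crp at 1163 and 1034 CPM. Orm1 had 9 counts over the 6 iHep_Foxa1 libraries, 8 over the 4 iHep_Foxa2 libraries and 0 over the 6 iHep_Foxa3 libraries, against 22973 over the 2 Hep libraries. Orm2 had 34, 4 and 0 counts in the same iHep groups against 2791 in Hep, and Crp had 0, 2 and 0 against 17799. In iHep_Foxa3 this made Orm1 at least 83049-fold lower and Orm2 at least 10068-fold lower than Hep, and Crp was at least 64335-fold lower. In iHep_Foxa1, Orm1 was 22460-fold lower and Orm2 716-fold lower. Replicate 4 of iHep_Foxa1 held 8 of the 9 Orm1 counts and 31 of the 34 Orm2 counts of its group. With DESeq2, Orm2 was not called in iHep_Foxa1 (adjusted p = 0.207) or iHep_Foxa2 (0.0924) against Hep, nor in Hep against MEF (0.105). Orm1 and Orm2 transcripts are 91.0% identical, so the counts of the pair are better read together. The call of Crp as lower than MEF in iHep_Foxa1 and iHep_Foxa3 (adjusted p = 0.0154 and 0.0102) rests on 0 counts against 3 counts, and was lost without MEF replicate 2 (adjusted p = 0.128 and 0.0978).

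The genes most like these 6 over the 28 libraries were other hepatocyte genes. Crp was matched by Serpina6 and Nr0b2, and 522 of the 13206 genes had a Pearson correlation of 0.95 or more with it. The number was 520 for Orm1, 501 for Orm2, 350 for Saa1, 482 for Saa2 and 485 for Saa4, against 1 for Saa3 and 1 for Lcn2. Saa3 itself had a correlation of −0.227 with Crp, −0.051 with Saa1 and 0.621 with Hp.

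**Figure D3:**
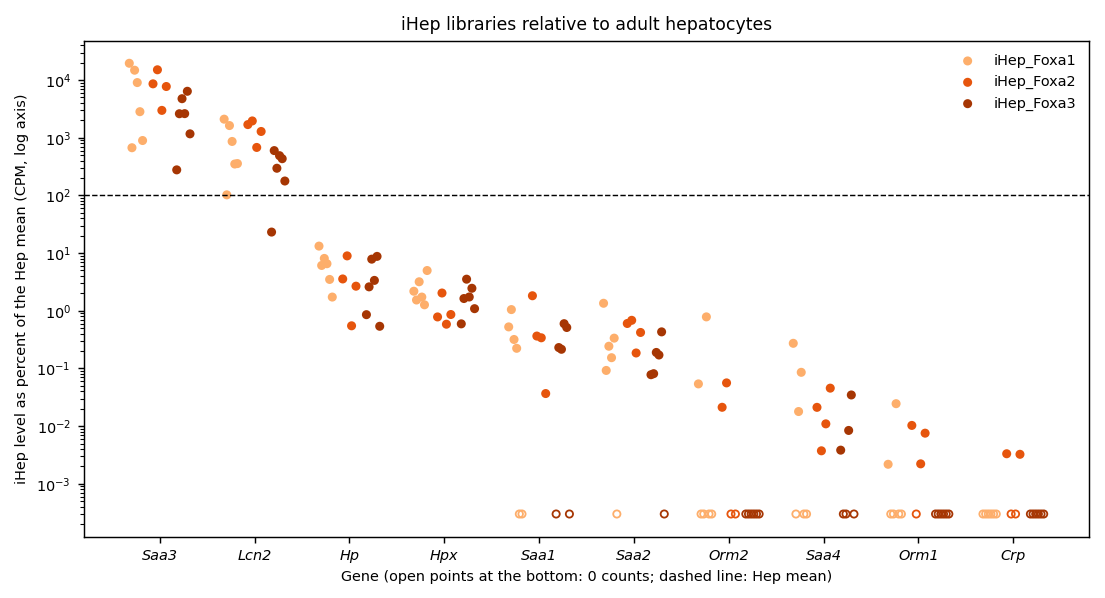
Level of each acute phase gene in every iHep library as a percentage of the mean CPM of Hep, on a log axis, with open points for 0 counts and a dashed line at the Hep mean. All Saa3 points lie above the line, Lcn2 points lie on both sides of it, and Hp and Hpx stand apart from the 6 genes below them, with means of 6.53% and 2.48% of Hep in iHep_Foxa1.

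The makeup of the acute phase RNA was unlike that of hepatocytes. Summed over the 10 genes, iHep_Foxa1 held 536 ± 397 FPKM, iHep_Foxa2 502 ± 278 FPKM and iHep_Foxa3 262 ± 184 FPKM, against 4414 ± 411 FPKM in Hep and 1.81 ± 0.976 FPKM in MEF (SD). Saa3 and Lcn2 together made up 47.4 ± 22.7% of that sum in iHep_Foxa1, 77.4 ± 6.11% in iHep_Foxa2 and 44.0 ± 12.8% in iHep_Foxa3, against 0.138 ± 0.0254% in Hep. Hp and Hpx made up 52.1 ± 22.4%, 21.9 ± 6.35% and 55.6 ± 12.8% in the same iHep groups, against 56.1 ± 3.58% in Hep. In Hep, the mean levels were 1299 FPKM for Hp, 1186 for Hpx, 988 for Orm1, 346 for Crp, 225 for Saa4, 171.6 for Saa1, 118 for Orm2 and 74.7 for Saa2, with Lcn2 at 4.57 and Saa3 at 1.48 FPKM. In iHep_Foxa2 the order was Saa3 at 250.2, Lcn2 at 126, Hp at 98.1 and Hpx at 24.6 FPKM. Saa3 was above Lcn2 in all 4 libraries of iHep_Foxa2. Over these libraries the FPKM ranges of neighbours in the order overlapped, at 86.8–420 for Saa3, 60.7–167 for Lcn2, 13.8–216 for Hp and 13.6–45.2 for Hpx, while Hpx stayed below Saa3 and Lcn2. In Hep, the range of Hp at 933–1664 FPKM took in those of Hpx at 1095–1276 and Orm1 at 973–1003 FPKM, and Saa4 at 165–284 overlapped Saa1 at 164–179 FPKM.

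**Figure D4:**
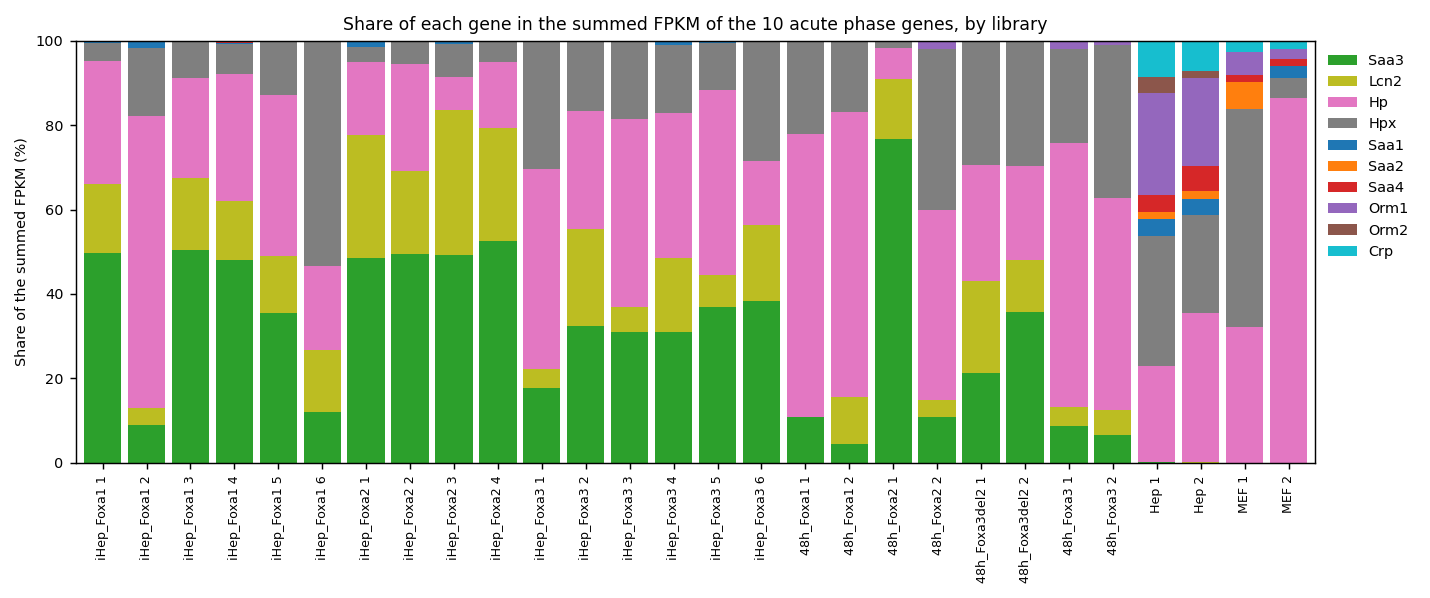
Share of each acute phase gene in the summed FPKM of the 10, as a stacked bar for each of the 28 libraries. Saa3 and Lcn2 fill 69.1–83.6% of the bar in iHep_Foxa2 and 90.8% in 48h_Foxa2 replicate 1, against 0.138% on average in Hep.

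At 48 h most of the 10 genes had few or no reads. No member was called in 48h_Foxa1 or in 48h_Foxa3 against MEF, where 5.25% and 5.21% of tested genes were called. In both, 1 member had an unadjusted p under 0.05 in edgeR's quasi-likelihood test, and neither DESeq2 nor limma called any. Saa3 was at 0.133 and 0.0674 CPM in 48h_Foxa1 and 0.125 and 0.0929 CPM in 48h_Foxa3. Hp was at 2.16–2.65 CPM in 48h_Foxa1 and 1.86–2.30 CPM in 48h_Foxa3, within the MEF range of 0.527–3.09 CPM. Saa1 had 0 counts in all 8 libraries at 48 h.

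In 48h_Foxa2 against MEF, Saa3 was the 1 member called higher, where 2.2% of tested genes were called higher and 3.28% lower, with an adjusted p of 0.0483. Its 2 libraries differed: replicate 1 had 1118 reads of Saa3, or 23.8 CPM, and replicate 2 had 8 reads, or 0.187 CPM. Lcn2 differed likewise, with 7.02 CPM in replicate 1 and 0.117 CPM in replicate 2. It did not pass the test (adjusted p = 0.0634) but was called by DESeq2 (adjusted p = 0.000431). The Saa3 call was lost without 48h_Foxa2 replicate 1 (adjusted p = 0.642) or replicate 2 (0.0789), without MEF replicate 1 (0.207) or 2 (0.233), with a replicate block (0.0646), without a filter on low counts (0.0558), with limma (0.184) and with a term for library set (0.0896).

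Of all tested genes with at least 1 CPM in 48h_Foxa2 replicate 1, 13 were at least 10-fold above replicate 2, and none were in the reverse direction. Saa3 led them at 127-fold and Lcn2 was the third of them at 59.9-fold. The others, named after their values were seen, included the chemokine genes Ccl5 at 53.4-fold, Ccl20 at 39.1-fold, Cxcl2 at 32.3-fold, Cxcl10 at 22.6-fold, Cxcl1 at 16.3-fold and Ccl2 at 13.9-fold. Gbp5, an interferon-induced GTPase gene, stood at 108-fold, and Nos2, the inducible nitric oxide synthase gene, at least 39.4-fold. Complement C3 was 9.74-fold higher. The other pairs of 48 h replicates held 0 or 1 such gene in either direction, while the MEF pair held 12 and 61 and the Hep pair 9 and 2. Hp had 280 reads in replicate 1 and 87 in replicate 2. What set replicate 1 apart was not tested.

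**Figure D5:**
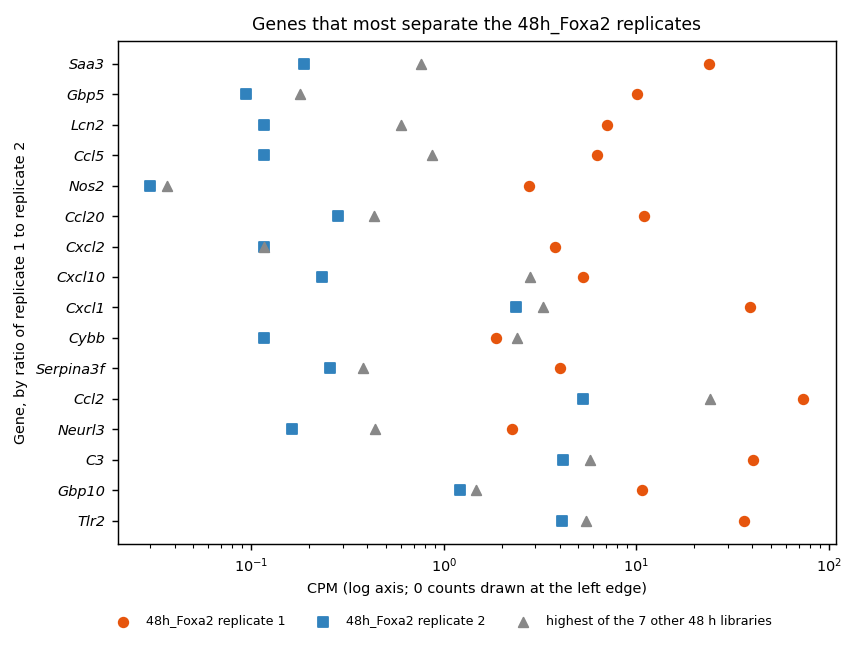
The 16 genes with the largest ratio of 48h_Foxa2 replicate 1 to replicate 2, in CPM on a log axis, with the highest of the other 7 libraries at 48 h as a triangle. Saa3 was at 23.8 CPM in replicate 1 against 0.187 CPM in replicate 2 and at most 0.759 CPM in any other 48 h library.

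Lcn2, Hp and Hpx were higher in iHep cells than at 48 h with all 3 factors, and Saa3 with Foxa1 and Foxa3. In iHep_Foxa1 against 48h_Foxa1, 7 members were called higher and none lower, where 21.2% of tested genes were called higher. In iHep_Foxa2 against 48h_Foxa2, 5 were called higher, where 20.4% were, and in iHep_Foxa3 against 48h_Foxa3, 4 were, where 19.6% were. No member was called lower, where 20.7%, 19.7% and 21% of tested genes were. Saa3 was 1173-fold higher in iHep_Foxa1 than in 48h_Foxa1 (log2 fold change 10.17 ± 2.2, SE, adjusted p = 0.000936) and 402-fold higher in iHep_Foxa3 than in 48h_Foxa3 (8.59 ± 2.06, adjusted p = 0.00222, edgeR's quasi-likelihood test). In iHep_Foxa2 against 48h_Foxa2 it was 10.6-fold higher, with a log2 fold change of 3.40 ± 1.48 that did not pass the test (adjusted p = 0.0717). It was called by DESeq2 (adjusted p = 0.0147), by limma (0.00714) and without 48h_Foxa2 replicate 1, where the log2 fold change was 9.37 (0.012).

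Lcn2 was 486-fold higher in iHep_Foxa1 than at 48 h (adjusted p = 0.000594), 28.6-fold higher in iHep_Foxa2 (adjusted p = 0.0108) and 200.7-fold higher in iHep_Foxa3 (adjusted p = 0.00147). Hp was 89.2-fold higher (adjusted p = 0.000619), 32.3-fold higher (adjusted p = 0.00353) and 63.2-fold higher (adjusted p = 0.000966) with Foxa1, Foxa2 and Foxa3. Hpx was 109.8-fold higher (adjusted p = 2.97e-06), 22.2-fold higher (adjusted p = 0.000133) and 51.4-fold higher (adjusted p = 9.82e-06). Without 48h_Foxa2 replicate 2, Hp and Lcn2 lost their calls with Foxa2 (adjusted p = 0.0664 and 0.096). Within the high Rn7sk set, Saa3 kept log2 fold changes of 9.26 with Foxa1 and 8.79 with Foxa3, Lcn2 8.00 and 7.82, Hp 5.72 and 6.15 and Hpx 6.85 and 5.83. All iHep_Foxa2 libraries belong to the low set and both 48h_Foxa2 libraries to the high set, so set and state cannot be told apart there.

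The other calls between 48 h and iHep came from low counts. Saa1 was called with Foxa1 (adjusted p = 0.0461) and Foxa2 (0.0252), at least 18.7-fold and 37.3-fold above the 0 counts at 48 h. With Foxa3 it was at least 15.3-fold higher and not called (0.0615), but was called with DESeq2 (0.0161), a replicate block (0.0416), within the high Rn7sk set (0.0386), and without iHep_Foxa3 replicate 1 (0.0431) or 6 (0.045). Summed to 1 row, Saa1 and Saa2 were called with all 3 factors (adjusted p = 0.0146, 0.0145 and 0.0246 with Foxa1, Foxa2 and Foxa3). Saa2 was called with Foxa1 (adjusted p = 0.0149) and Foxa2 (0.0353), and Saa4 with Foxa1 (0.0365). Without 48h_Foxa1 replicate 1 the adjusted p was 0.181 for Saa1, 0.0926 for Saa2 and 0.156 for Saa4, and without replicate 2 it was 0.202, 0.11 and 0.179. Leaving out iHep_Foxa1 replicate 1 (0.061), 2 (0.0747) or 3 (0.0524) also ended the Saa1 call with Foxa1, and leaving out replicate 1 ended that of Saa4 (0.0915). With Foxa2, the Saa1 call was lost without 48h_Foxa2 replicate 1 (0.137) or 2 (0.131) or iHep_Foxa2 replicate 1 (0.0631). The Saa2 call with Foxa2 was lost without 48h_Foxa2 replicate 1 (0.0861) or 2 (0.221) or iHep_Foxa2 replicate 1 (0.0563) or 2 (0.062). With limma, Saa1, Saa2 and Saa4 lost their calls with Foxa1 (0.194, 0.13 and 0.307). Saa1 and Saa2 also lost theirs with Foxa2 (0.0726 and 0.0527). The library set term ended the calls of Saa1 (0.128) and Saa4 (0.103) with Foxa1 and of Saa1 (0.143) and Saa2 (0.213) with Foxa2. With Foxa1, fitting the groups alone ended those of Saa1 (0.0939) and Saa4 (0.17). The Saa1 call there was also lost with no filter (0.0581) and within the high Rn7sk set (0.143).

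The difference between iHep cells and 48 h was compared between factors as an interaction, where 0% of tested genes were called for any pair of factors. No member was called, with 3, 1 and 1 members at an unadjusted p under 0.05 and none called by DESeq2 or limma. For Saa3, the log2 fold change with Foxa1 minus that with Foxa2 was 6.76 ± 2.22 (SE, adjusted p = 0.853), and that with Foxa2 minus that with Foxa3 was −5.19 ± 2.14 (adjusted p = 0.36). Both values turn on the high 48h_Foxa2 replicate 1: without it they were 0.79 and 0.78.

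With the del2 mutant of Foxa3, all 10 genes were at low levels, as with intact Foxa3 at 48 h. Saa3 was at 0.364 and 0.759 CPM in 48h_Foxa3del2 against 0.125 and 0.0929 CPM in 48h_Foxa3. Lcn2 was at 0.601 and 0.419 CPM against 0.105 and 0.139 CPM, and Hp at 1.22 and 1.22 CPM against 2.30 and 1.86 CPM. The groups did not overlap for these 3 genes or for Orm1, at 0 counts against 3 over the group. Of all tested genes, 38.5% lay wholly higher and 39.9% wholly lower in 48h_Foxa3del2. No member was called in edgeR's quasi-likelihood test, where 2.98% of tested genes were. The log2 differences were 2.31 ± 2 (SE, adjusted p = 0.629) for Saa3, 2.04 ± 1.7 (adjusted p = 0.61) for Lcn2, −0.77 ± 1.16 (adjusted p = 0.823) for Hp and 0.44 ± 0.734 (adjusted p = 0.847) for Hpx. No member reached an unadjusted p under 0.05, and DESeq2 and limma called none. Fitted on these 4 libraries alone, 3 members were called. The 2.98% belongs to the fit on all 28 libraries. The share of all tested genes called in the fit on 4 is not given here, so its count only describes the members. The 2 groups lie in different Rn7sk sets, so set and mutant cannot be told apart.

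Among the 3 iHep groups, no acute phase gene was called different, where 11% of tested genes were called between iHep_Foxa1 and iHep_Foxa2, 8.32% between iHep_Foxa1 and iHep_Foxa3 and 31.1% between iHep_Foxa2 and iHep_Foxa3. Members at an unadjusted p under 0.05 numbered 1, 3 and 2 in edgeR's quasi-likelihood test. DESeq2 called 1, 0 and 1, and limma 0, 0 and 1. The closest was Lcn2, higher in iHep_Foxa2 than in iHep_Foxa3 by a log2 difference of 2.06 ± 0.806 (SE, adjusted p = 0.0560). All 4 iHep_Foxa2 libraries lay above all 6 iHep_Foxa3 libraries. Of all tested genes, 8.23% lay wholly higher in iHep_Foxa2 and 8.36% wholly lower. Lcn2 was called by DESeq2 (adjusted p = 0.0387), by limma (0.0237) and with these groups fitted alone (0.0294). All iHep_Foxa2 libraries are in the low Rn7sk set, and all iHep_Foxa3 libraries but replicate 1 are in the high set. For every gene compared between these groups, set and factor can therefore hardly be told apart. Hpx differed by 1.22 ± 0.463 between iHep_Foxa1 and iHep_Foxa2 (adjusted p = 0.0857), and was called by DESeq2 (0.0349) and without iHep_Foxa2 replicate 2 (0.0384). Saa3 differed by −0.11 ± 0.914 between iHep_Foxa1 and iHep_Foxa2 (adjusted p = 0.957), 1.42 ± 0.837 between iHep_Foxa1 and iHep_Foxa3 (0.299) and 1.53 ± 0.906 between iHep_Foxa2 and iHep_Foxa3 (0.201). These intervals are wide, and a p that misses the threshold does not show equal levels.

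Levels varied widely within groups. The highest library exceeded the lowest 29.1-fold for Saa3 and 20.5-fold for Lcn2 in iHep_Foxa1, 5.06-fold and 2.88-fold in iHep_Foxa2, and 23.0-fold and 25.8-fold in iHep_Foxa3. For Hp the ratio was 7.65, 16.3 and 16.3 in the same groups, and for Hpx 3.93, 3.47 and 5.95. Replicate 1 of iHep_Foxa3 was lowest of its group for Saa3, Lcn2 and Hpx, and it is also the only library of its group in the low Rn7sk set.

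Other genes of the acute phase response were read from lists of known members. Of 25 further acute phase plasma proteins, 11 were called higher and 2 lower in iHep_Foxa1 than in MEF, 8 higher and 0 lower in iHep_Foxa2, and 8 higher and 2 lower in iHep_Foxa3, with medians of 3.94, 2.67 and 2.89 on the log2 scale against 0.08, 0.06 and 0.05 for all tested genes. Of all tested genes, 20%, 15.3% and 22.9% were called higher and 19.9%, 15.5% and 23.7% lower than MEF with Foxa1, Foxa2 and Foxa3. Against Hep, 21 of the 25 were called lower with each factor, where 24.8%, 25.4% and 26.7% of tested genes were. Ceruloplasmin (Cp), a copper-carrying oxidase, rose to 222–897, 359–1029 and 102–394 CPM in iHep_Foxa1, iHep_Foxa2 and iHep_Foxa3, against 1.53–3.38 CPM in MEF. The lipopolysaccharide-binding protein gene Lbp reached 167–618, 94.6–219 and 55.5–710 CPM, against 57.3–113 CPM in Hep and 0.479–0.999 CPM in MEF. It was called above Hep with Foxa1 (log2 fold change 2.17, adjusted p = 0.0118) and Foxa3 (1.81, adjusted p = 0.0278) and not with Foxa2 (0.86, adjusted p = 0.281). Complement factor B (Cfb) rose to 45.1–731, 129–658 and 53.0–181 CPM against 1.05–1.20 CPM in MEF. Mbl2, a lectin of innate defence, was at no more than 0.13 CPM in iHep cells against 1586–1622 CPM in Hep.

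Of 10 plasma proteins that fall in the acute phase, 6 were called higher and 2 lower in iHep_Foxa1 than in MEF, 5 and 1 in iHep_Foxa2 and 5 and 1 in iHep_Foxa3, where 20%, 15.3% and 22.9% of all tested genes were called higher and 19.9%, 15.5% and 23.7% lower. Against Hep, 9 were called lower with each factor, where 24.8%, 25.4% and 26.7% of tested genes were. Apoa1, whose protein is the chief apolipoprotein of high-density lipoprotein, was not called, at 1827–28174 CPM over all iHep libraries against 5775–7052 CPM in Hep.

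Of 12 cytokines of the response, 9 were tested: 2, 2 and 1 were called higher and 1 lower than MEF in iHep_Foxa1, iHep_Foxa2 and iHep_Foxa3, and 3, 3 and 2 were called higher and 3, 3 and 4 lower than Hep. Of all tested genes, 20%, 15.3% and 22.9% were called higher and 19.9%, 15.5% and 23.7% lower than MEF, and 35.3%, 35.2% and 35.3% higher and 24.8%, 25.4% and 26.7% lower than Hep. Lif, a cytokine of the interleukin-6 family, rose to 44.3–151 CPM in iHep_Foxa1, 69.0–159 CPM in iHep_Foxa2 and 70.3–323 CPM in iHep_Foxa3, against 0.125–0.245 CPM in Hep and 6.52–11.5 CPM in MEF. Its log2 fold change from MEF was 3.45, 3.70 and 4.21 (adjusted p = 0.000177, 0.000183 and 2.63e-05). Il6 was at 0–2.06 CPM in iHep_Foxa1, 0.840–4.71 CPM in iHep_Foxa2 and 0–0.216 CPM in iHep_Foxa3, against 0–0.0958 CPM in MEF, and was called above MEF with Foxa2 (adjusted p = 0.0435). Between iHep_Foxa2 and iHep_Foxa3 the difference of Il6 itself was called, at 4.88 on the log2 scale (adjusted p = 0.00417). These groups lie almost wholly in different Rn7sk sets, so set and factor can hardly be told apart. Tnf, an inflammatory cytokine, was called above MEF with Foxa1 (adjusted p = 0.0362), at 0.464–37.1 CPM in iHep_Foxa1 against 0–0.285 CPM in MEF. Ctf1, another cytokine of the interleukin-6 family, was lower than MEF in all 3 iHep groups by log2 fold changes of −2.67, −1.36 and −2.33 (adjusted p at most 0.0147). Il1b, which encodes interleukin-1 beta, fell below Hep in all 3 groups, at no more than 0.0315 CPM in iHep cells against 2.37–5.39 CPM in Hep. Of 12 receptors, 1, 2 and 2 were called higher and 3, 2 and 2 lower than MEF, beside the same shares of all tested genes. Il22ra1, the receptor through which interleukin-22 acts on epithelia and hepatocytes, rose to 41.7–143, 32.2–98.9 and 51.7–111 CPM against at most 0.0476 CPM in MEF. Osmr, a receptor subunit for oncostatin M, was at 29.8–150 CPM over the iHep libraries against 0.498–0.979 CPM in Hep.

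Of 27 signalling and feedback genes, 11 were called higher and 4 lower in iHep_Foxa1 than in MEF, 9 and 2 in iHep_Foxa2 and 12 and 5 in iHep_Foxa3, where 20%, 15.3% and 22.9% of tested genes were called higher and 19.9%, 15.5% and 23.7% lower. Nfkbiz, an inducible NF-kB cofactor, rose to 85.05–285 CPM in iHep_Foxa1, 199–404 CPM in iHep_Foxa2 and 54.7–169 CPM in iHep_Foxa3, against 20.7–23.5 CPM in Hep and 19.3–50.3 CPM in MEF. It was called against both. Nfkbia, the inhibitor that NF-kB induces, rose to 83.0–549, 456–773 and 54.6–204 CPM against 31.6–31.7 CPM in MEF. Of 18 liver transcription factors, 8, 6 and 8 were called higher than MEF, where 20%, 15.3% and 22.9% of tested genes were. The 18 include the factors given by virus, so the counts against MEF only describe the list. Against Hep, 12, 13 and 12 were called lower, where 24.8%, 25.4% and 26.7% of tested genes were. Cebpa stood at 50.4–154, 102–148 and 24.1–76.9 CPM against 1747–2348 CPM in Hep, and Cebpb at 13.5–55.1, 34.0–99.9 and 32.6–54.2 CPM against 495–875 CPM in Hep. Cebpd was higher in iHep_Foxa2 than in iHep_Foxa3 (adjusted p = 0.00101), at 195–540 CPM against 20.3–84.98 CPM. Here too, Rn7sk set and factor can hardly be told apart.

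Of 14 genes for receptors of the secreted proteins, 13 were tested, and 4 were called higher and 7, 6 and 7 lower in iHep_Foxa1, iHep_Foxa2 and iHep_Foxa3 than in Hep, where 35.3%, 35.2% and 35.3% of tested genes were called higher and 24.8%, 25.4% and 26.7% lower. Slc22a17, which encodes a receptor of lipocalin-2, was at 12.4–57.3, 38.1–69.2 and 11.1–40.4 CPM in these groups, against 0.498–1.35 CPM in Hep and 26.6–39.4 CPM in MEF. Its log2 fold change from Hep was 4.92, 5.84 and 4.50 (adjusted p at most 8.7e-06). Cd163, the macrophage receptor for haptoglobin bound to hemoglobin, was at no more than 0.118 CPM in iHep cells against 15.9–17.1 CPM in Hep. Lrp1, which takes up hemopexin bound to heme, was at 187–752 CPM over the iHep libraries against 848–880 CPM in Hep.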

How the data were processed

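Strand-specific mRNA libraries (TruSeq, from RNeasy Micro extracts) were sequenced for 28 samples, per the labels' protocols. Reads were aligned with BWA 0.7.12 to mm9, per the submitters' processing notes; the program that assigned reads to transcripts is not given in the sources used here. Each deposited file lists 30710 RefSeq transcripts with expected counts, which the authors estimated per transcript and which were whole within 1e-09 for all but at most 7 values. It also lists FPKM as deposited by the authors, which a recalculation from counts and lengths matched within 0.459% for transcripts of at least 1000 counts, and the authors' fraction of reads estimated for each transcript, which was not used.

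Expected counts were rounded and summed per gene. RefSeq gave 30190 names and GENCODE 181; the 339 unnamed transcripts held 0.609 to 3.208% of reads and were left out. edgeR 4.0.16 (R 4.3.3) fitted all 28 libraries by group (TMM scaling, filterByExpr leaving 16499 genes, robust quasi-likelihood F test, 19 residual degrees of freedom) for 17 comparisons and 3 interactions. All 10 members passed the filter, 7 of them without Hep. Adjusted p-values are Benjamini-Hochberg over all tested genes within a comparison. Alternatives used DESeq2 1.42.0, DESeq2 size factors, limma 3.58.1 on log2(FPKM + 1), no filter, the compared groups alone, a replicate block, library set, summed near-identical copies and leaving out each library. The fit was tested on simulated counts. Summaries and figures used python 3.11.15, pandas 2.3.3 and matplotlib 3.10.9. Where a group had 0 counts, folds are bounds against 3 counts over the group. PCR duplicates cannot be told from separate molecules, so bounds cover counting error only.

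Members and lists were chosen with earlier results of these data known. All 10 members were named in each comparison; of each other list, up to 4 genes of highest mean level and up to 4 called with the smallest adjusted p could be named, and for likeness up to the top 3, of which 1 gene is not reported here. Genes of the 48h_Foxa2 replicate difference and the markers S100a8, S100a9, Mpo, Camp, Retnlg, Clec4f, Lep, Adipoq, Plin1, Cfd, Pck1, Cdx1, Cdx2, Vil1, Lgals4, Tff3, Muc2 and Cdh17 were named after their values were seen.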

Additional observations from a re-analysis of the deposited data

Results flagged for a closer look

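The values of 1 member in 1 iHep group, of 4 or 6 libraries, made up a set. Of 26 sets tested, 5 had a highest library far from the rest by Dixon's criterion. Chance gives this in about 1 in 20 sets of independent, normally distributed values. The sets share libraries and many hold values near 0 counts, so that rate may not hold here. In iHep_Foxa1, replicate 1 had 1.15 CPM of Saa2 (37 counts, next highest library 0.285 CPM) and 2.35 CPM of Saa4 (76 counts, next 0.739 CPM). Replicate 4 of the same group had 0.348 CPM of Orm1 (8 counts, next 0.0310 CPM) and 1.35 CPM of Orm2 (31 counts, next 0.0929 CPM). In iHep_Foxa3, replicate 5 had 0.299 CPM of Saa4 (9 counts, next 0.0726 CPM). Replicate 1 of iHep_Foxa1 was also highest of its group for Saa3, Lcn2 and Hp, and replicate 5 of iHep_Foxa3 for Saa3 and Hp. All 5 values are far below the Hep levels of the same genes.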

How the results depend on the processing

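Of the counts of members called under another setting with all libraries kept, 136 stayed within 1.5 times the reported count and 17 did not. For 48h_Foxa2 against MEF, with 1 call, DESeq2 gave 2, and limma, no filter, the compared groups alone, the replicate block and the library set term each gave 0. For iHep_Foxa1 against 48h_Foxa1, with 7, limma, the groups alone and the high Rn7sk set each gave 4. For iHep_Foxa2 against 48h_Foxa2, with 5, the set term gave 3, and for iHep_Foxa3 against MEF, with 5, the low Rn7sk set gave 3, where the lone iHep_Foxa3 library is assumed to vary like the other groups. Where no member was called, iHep_Foxa1 against iHep_Foxa2 gave 1 with DESeq2, iHep_Foxa1 against iHep_Foxa3 gave 1 with the set term, iHep_Foxa2 against iHep_Foxa3 gave 1 each with DESeq2, limma and the groups alone, and 48h_Foxa3del2 against 48h_Foxa3 gave 3 with the groups alone. Leaving out each library gave 0 to 0 calls for 48h_Foxa2 against MEF, 4 to 7 for iHep_Foxa1 against 48h_Foxa1, 1 to 5 for iHep_Foxa2 against 48h_Foxa2 and 0 to 1 for iHep_Foxa1 against iHep_Foxa2. It turned 2 differences between factors in the change from 48 h to iHep cells, both without 48h_Foxa2 replicate 1: Lcn2, Foxa1 minus Foxa2, ranged from −0.90 to 9.12 (log2), and Saa3, Foxa2 minus Foxa3, from −6.25 to 0.78. The cause of these changes was not tested. Shares of all tested genes called under these other settings are not given here, so the counts only describe the members. The labels state no link between same-numbered replicates. Their correlations ran from −0.208 to 0.341, and 0 of the 3 comparisons with 3 or more pairs had all above 0.1. These values do not show whether same-numbered replicates share a source. The replicate block ended the calls of Lcn2 in iHep_Foxa1 against Hep (adjusted p = 0.0605) and of Crp in iHep_Foxa1 against MEF (0.0567), and added Saa2 in iHep_Foxa1 (0.0465) and iHep_Foxa2 (0.0316) against MEF and Saa1 (0.0416) and Saa2 (0.02) in iHep_Foxa3 against 48h_Foxa3. Crp also lost its calls against MEF with limma (0.478 and 0.461 with Foxa1 and Foxa3). DESeq2 size factors moved the median of all genes by 0.157 in Hep against MEF and by −0.21, −0.244 and −0.23 (log2) in iHep_Foxa1, iHep_Foxa2 and iHep_Foxa3 against Hep. Fits within 1 Rn7sk set were not possible where the groups share none (48 h against MEF, iHep_Foxa2 against 48h_Foxa2, and 48h_Foxa3del2 against 48h_Foxa3). Depth limits Saa1, Saa2, Saa4, Orm1, Orm2 and Crp outside Hep, which rest on few reads, and groups of 2 libraries limit all comparisons with Hep, MEF and 48 h.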
